A study of Mus musculus with 87 samples.

Results

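Livers collected 4 h after partial hepatectomy (PH), the surgical removal of most of the liver, were compared with livers collected 4 h after a sham operation, in which the abdomen was opened and no lobe was removed. The members were taken by label: the 3 PH livers of the 4 h group that have a column in the deposited table (X4, replicates 4 to 6) and the 5 sham livers of the same hour (S4, replicates 1 to 5), 8 of the 80 livers with values. All animals were male C57/BL6 mice of 12 to 14 weeks, kept on 12 h of light and 12 h of dark with food only in the dark, operated on at Zeitgeber time (ZT) 2 and killed at ZT6, ZT0 being the start of the light. Unoperated mice killed at the same ZT6 (C4, 3 livers) served for the level without surgery at that hour. PH and sham livers at 1 h (X1 and S1, 6 and 6 livers) and 10 h (X10 and S10, 6 and 3 livers) served for the course in time. A sham operation shares the anaesthesia, the wound and the handling with PH, so X4 against S4 asks what the resection adds at 4 h. The loss of liver mass cannot be told apart from the rest of the resection. Each library was poly(A) RNA of 1 liver, that is, 1 mouse.

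After PH the remaining hepatocytes, which are mostly quiescent in the adult, leave G0 and prepare for DNA synthesis while they go on carrying the metabolic work of the whole organ. The endoplasmic reticulum (ER) of a hepatocyte folds the plasma proteins the liver secretes, and its unfolded protein response raises chaperones and degradation factors through the sensors Ern1, Atf6 and Eif2ak3. Fatty acids released from adipose tissue reach the remnant liver, where they are stored in lipid droplets or oxidised under the control of the nuclear receptor PPAR-alpha.

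Depth, estimated from the steps between low values, was 28.3 to 30.3 megareads (M reads) in X4, 27.2 to 48.9 M reads in S4 and 20.1 to 23.4 M reads in C4, and detected genes correlated at 0.990 to 0.992 between X4 replicates and at 0.982 to 0.992 between S4 replicates. S4 replicate 3 had the highest level of most ER chaperones. It also had the highest summed neutrophil and monocyte marker level, 48.8 RPKM against 8.03 in the lowest S4 liver. Its summed macrophage level was 69.5 RPKM against 24.8 in the lowest S4 liver. The largest neutrophil markers were graded: S4 replicates 3, 5 and 4 had 19.09, 11.5 and 8.963 RPKM of S100a8 and 19.41, 13.76 and 9.598 RPKM of S100a9. No summed marker level was among the outliers flagged below. Results that rest on it are given without it. The S4 livers were not all collected in the same experimental period, and the labels do not say which replicate belongs to which. S4 replicates correlated at 0.990 to 0.992 within 1 to 3, at 0.992 between 4 and 5, and at 0.982 to 0.989 between these sets. Whether these sets are the periods was not tested. The authors list 4 h PH livers from separate periods too, and only replicates 4 to 6 have values. Surgery and period can therefore not be told apart fully in X4 against S4. Main counts are also given against S4 replicates 4 and 5 only. The authors list the C4 livers in a period apart from the operated livers of 4 h. Surgery and period therefore cannot be told apart in any comparison with C4. A difference in level in whole liver can come from fewer cells of a type or from less RNA per cell, and these cannot be told apart here.

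Of 15396 genes tested, 1330 (8.64%) differed between X4 and S4, 486 (3.16%) higher and 844 (5.48%) lower after PH. A gene was called when limma's adjusted p was below 0.05 and the difference exceeded 0.5 on the log2(RPKM + 0.25) scale, where RPKM is the read count divided by transcript length in kilobases and by library size in M reads. Fold changes are on this scale, which understates the change of low genes. Most differences were small: the median size among called genes was 0.71, 286 genes moved by more than 1 and 30 by more than 2. In 1137 of the called genes the 3 X4 livers lay wholly above (380) or wholly below (757) the 5 S4 livers; over all genes tested, 6.98% lay wholly above and 14.7% wholly below. The split between higher and lower depended on scaling: 36.5% of the called genes were higher in the deposited values, in which the median gene differed by -0.04, and 48.2% were higher once all libraries had been brought to a common median, with 707 genes higher (4.59%) and 761 lower (4.94%). Against S4 replicates 4 and 5 only, 272 genes were higher (1.77%) and 603 lower (3.92%). Of the 1330 genes called against all S4 livers, 618 (46.5%) were called again. The sign was kept in 1328, but both comparisons share livers, so this was largely set in advance. Against S4 replicates 1 to 3 only, 1636 genes were called.

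**Figure D1:**
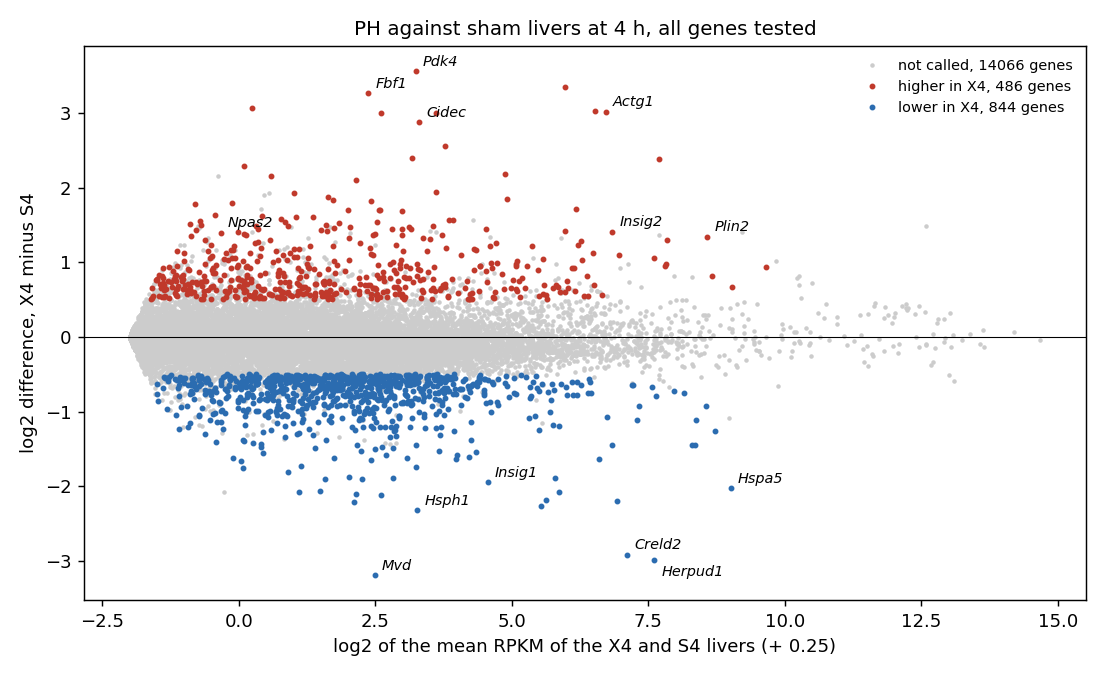
Difference between PH and sham livers at 4 h (y axis, log2) against the mean RPKM of the 8 livers (x axis, log2) for the 15396 genes tested, 1 point a gene, with called genes coloured. The 486 higher genes reach a log2 difference of 3.56 (Pdk4) and the 844 lower genes one of -3.19 (Mvd).

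The plot of list counts gives the share of called members in 37 gene lists. Counts of a few members in a list are to be read beside the shares of all genes tested, 3.16% higher and 5.48% lower. Of the ER stress genes 24 of 30 fell and of the heat shock proteins 14 of 26, with none higher. Fewer members passed in the other lists described: 7 of 19 clock genes and 6 of 27 cholesterol genes were lower, with 2 higher in each, and 8 of 29 fatty acid oxidation and 5 of 15 lipid droplet genes were higher. Genes were ranked among called protein-coding genes without overlap between groups and above the level set for named genes. The 12 with the largest rise were Pdk4, Fbf1, Actg1, Cidec, Fam107b, 3930402G23Rik, Id1, Enc1, Pctp, Rnf144a, Gadd45b and Tmprss7. The 12 with the largest fall were Mvd, Herpud1, Creld2, Hsph1, Syvn1, Ddit3, Pdia4, Sdf2l1, Gm6484, Hspa1b, Manf and Vasn, of which 7 belong to the ER stress list and 2 to the heat shock list. In 7 lists no member passed the test: cytosolic ribosomal proteins, replication and mitosis, fatty acid synthesis, apolipoproteins, DNA methylation and Polycomb genes, proteasome subunits and the respiratory chain.

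**Figure D2:**
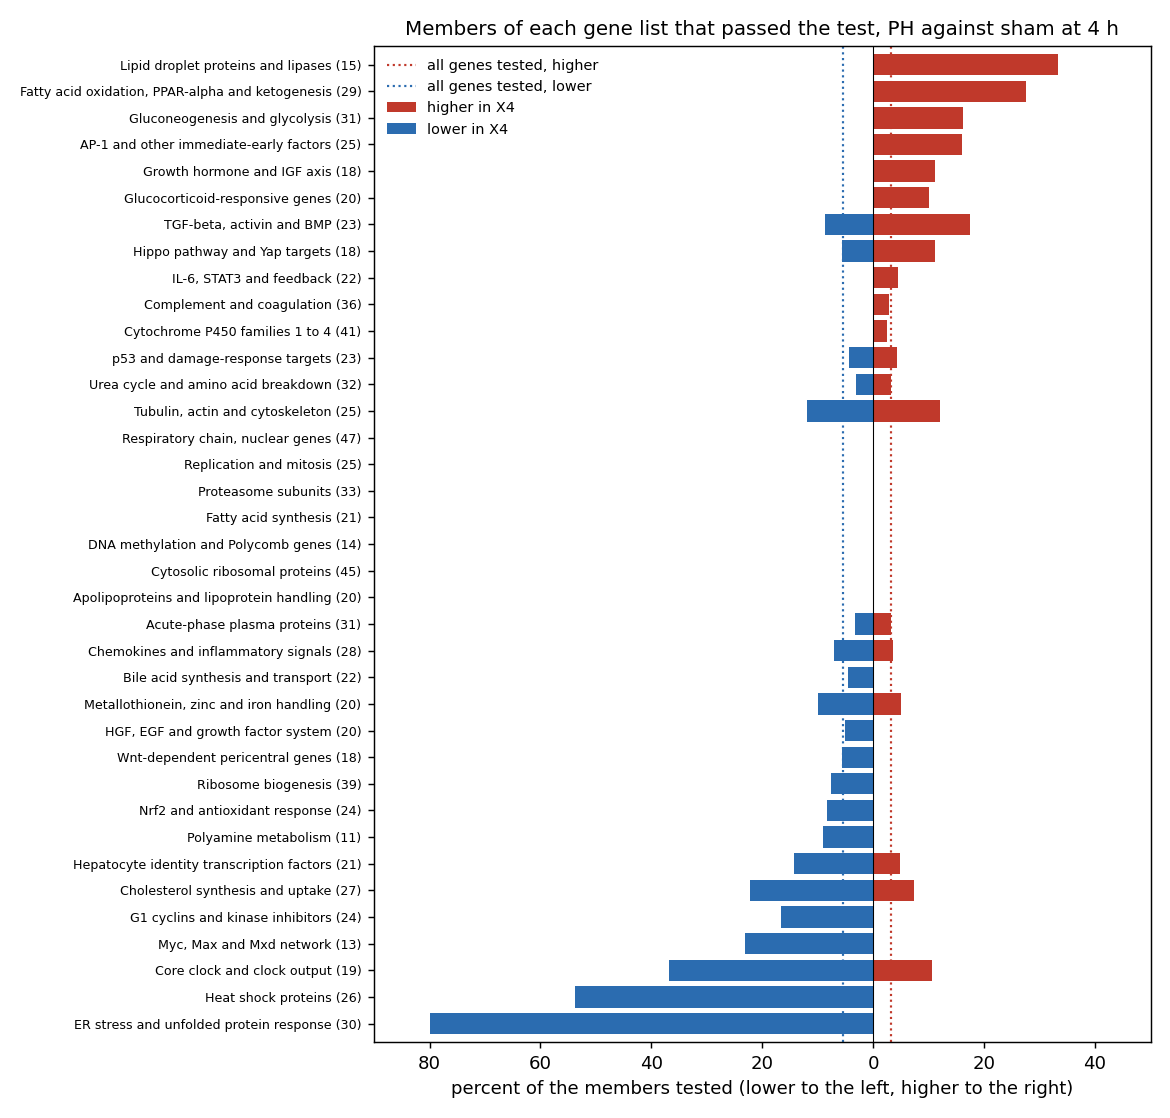
Percent of the tested members of 37 gene lists that were lower (left) or higher (right) in PH than in sham livers at 4 h, with the number tested in brackets and dotted lines at the share of all genes tested. ER stress genes (24 of 30 lower) and heat shock proteins (14 of 26 lower) extend farthest to the left, lipid droplet genes (5 of 15 higher) and fatty acid oxidation genes (8 of 29 higher) to the right.

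Of the 30 ER stress and unfolded protein response genes, 24 were lower in X4 than in S4 and none higher, where 5.48% of all genes were lower. Their median difference was -1.07, that of all genes tested -0.04. The called members fell by 0.60 to 2.99 on the log2 scale. In 27 of the 30 every X4 liver was below every S4 liver, as in 14.7% of all genes tested. Without S4 replicate 3, 20 genes were lower, and against S4 replicates 4 and 5 only, 15.

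Herpud1, a membrane component of the machinery that retrotranslocates misfolded ER proteins, was at 42.2, 39.5 and 45.7 RPKM in the 3 X4 livers and at 343, 331, 482, 241 and 332 RPKM in the 5 S4 livers. It was 7.92-fold lower after PH (log2 difference -2.99 ± 0.39 SE, adjusted p = 7.2e-08, limma), and even the lowest sham liver was far above the PH livers. Creld2, an ER-resident protein secreted under stress, was at 35.3, 21.4 and 38.0 RPKM in X4 and at 239, 212, 395, 152 and 224 RPKM in S4 (-2.92 ± 0.54, adjusted p = 7.46e-05). Hspa5 (BiP), the main Hsp70 chaperone of the ER lumen, was at 221, 154 and 215 RPKM in X4 and at 961, 710, 1311, 508 and 674 RPKM in S4, a 4.06-fold difference (-2.02 ± 0.34, adjusted p = 1.5e-05). None of these 3 genes had overlapping groups. The unoperated livers had 147 to 173 RPKM of Hspa5 and 18.9 to 23.4 RPKM of Creld2, close to the PH livers, and 94.1 to 113 RPKM of Herpud1, above them. Herpud1 lies at chr8:96910338-96919277 on the plus strand of mm9 and Hspa5 at chr2:34627490-34632051, also on the plus strand.

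The factors that transcribe this response are known to bind short elements near the start of chaperone genes. Promoter windows of 250 bases before to 50 after the start were taken from RefSeq (GRCm38.p6) and searched on both strands. The ER stress element, CCAAT followed after 9 bases by CCACG, stood in 9 of 27 windows of the ER stress list (33.3%; those of Calr, Canx, Creld2, Dnajc3, Ero1lb, Hsp90b1, Hspa5, Pdia6 and Syvn1) and in 0.119% of all 32851 windows. The shorter ER stress element II, ATTGG followed after 1 base by CCACG, stood in 2 of 27 (7.41%; Dnajb11 and Herpud1) and in 0.0365% of all. Both contain the CCAAT box or its complement, which alone stood in 81.5% of the list's windows and in 37.4% of all. These counts describe letters in a window and carry no test; the elements were chosen after the values were seen. The windows of the leading genes are shown with the element in capitals, 5′ to 3′ on the strand of the gene, the first 30 bases long and the others 160 bases up to the RefSeq start.
Hspa5 (mm9 chr2:34627540-34627569, plus strand): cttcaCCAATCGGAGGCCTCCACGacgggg
Herpud1 (mm9 chr8:96910169-96910328, plus strand): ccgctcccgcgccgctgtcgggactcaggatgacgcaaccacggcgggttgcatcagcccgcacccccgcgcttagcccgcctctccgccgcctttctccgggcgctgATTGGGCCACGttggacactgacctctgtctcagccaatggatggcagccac
Creld2 (mm9 chr15:88649916-88650075, plus strand): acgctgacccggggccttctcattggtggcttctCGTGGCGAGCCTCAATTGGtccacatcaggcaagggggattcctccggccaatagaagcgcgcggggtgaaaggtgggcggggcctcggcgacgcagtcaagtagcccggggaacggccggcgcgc
Syvn1 (mm9 chr19:6046416-6046575, plus strand): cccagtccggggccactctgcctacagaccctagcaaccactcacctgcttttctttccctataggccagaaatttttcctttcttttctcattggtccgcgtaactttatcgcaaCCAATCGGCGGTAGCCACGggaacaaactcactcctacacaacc
The elements begin 65 bases before the start in Hspa5, 52 in Herpud1, 126 in Creld2, where it lies on the opposite strand, and 44 in Syvn1, all counted from the RefSeq start. For Hspa5 the mm9 gene model given above starts before the RefSeq start, so the stretch shown lies inside that model.

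Other proteins of the ER quality control fell with them. Syvn1, the ubiquitin ligase of ER-associated degradation, was at 16.8, 11.3 and 18.5 RPKM in X4 and at 71.4, 56.5, 109, 55.8 and 91.5 RPKM in S4 (-2.27 ± 0.42, adjusted p = 6.73e-05), and its partner Sel1l was at 9.83 to 10.6 RPKM in X4 and 17.8 to 40.9 in S4 (-1.38 ± 0.22). The protein disulfide isomerase Pdia4 was at 49.5, 35.1 and 38.0 RPKM in X4 and 110 to 363 RPKM in S4 (-2.20 ± 0.28, adjusted p = 2.6e-08). Sdf2l1 and Manf, both ER-resident proteins induced by ER stress, were 4.55-fold and 4.22-fold lower. The lumenal chaperones and co-chaperones Hyou1 (-1.90), Dnajb9 (-1.64), Hsp90b1 (-1.45) and Dnajb11 (-1.25) fell too, without overlap between the groups. Smaller falls were found for the lectin chaperone Calr (-0.75), the isomerases Pdia3 (-0.92) and Pdia6 (-0.78) and the mannosidase-like factor Edem1 (-0.77). Calr, Pdia3, Pdia6 and Edem1 were not called against S4 replicates 4 and 5 only (-0.49, -0.61, -0.46 and -0.54).

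On the side of the response that slows translation, Ddit3 (CHOP), a transcription factor of prolonged ER stress, was at 1.08, 1.09 and 1.72 RPKM in X4 and at 5.98, 6.29, 7.40, 6.32 and 8.11 RPKM in S4. It fell 4.62-fold (-2.21 ± 0.30, adjusted p = 1.51e-07), and the unoperated livers, at 1.97 to 4.25 RPKM, lay between the operated groups. Atf4, the factor whose translation rises when eIF2 is phosphorylated, was at 46.0 to 48.5 RPKM in X4 and 74.1 to 86.0 RPKM in S4 (-0.78 ± 0.15, adjusted p = 0.000126). The eIF2 kinase Eif2ak3 (PERK) was lower by 0.84 against all S4 livers and by 0.58, not called, against replicates 4 and 5 only. Trib3, a pseudokinase target of Ddit3, was at 0.280 to 0.514 RPKM in X4, 0.643 to 3.01 in S4 and 3.50 to 7.48 in C4, so that both operated groups were below the unoperated livers; its fall against S4 (-1.55) was not called against replicates 4 and 5 only (-0.70). Chac1, which degrades glutathione, was lower by 1.21 (adjusted p = 0.048), a call lost when any of S4 replicates 1 to 3 or any X4 liver was left out (-0.98 to -1.29).

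A few members of the list did not pass. Xbp1, whose spliced form drives chaperone genes, was at 165, 169 and 210 RPKM in X4 and 138 to 151 RPKM in S4, above all sham livers but with a difference of 0.32 and an adjusted p of 0.458; gene-level values do not separate its spliced form. The sensors Ern1 and Atf6 differed by -0.40 and -0.37 (adjusted p 0.0548 and 0.109), Canx by -0.34, Ppp1r15a by -0.38 and Ero1l by -0.47. Ero1lb, an oxidase that drives disulfide formation, was lower by 0.82, but its fall was not called without S4 replicate 3 (-0.68), X4 replicate 5 (-0.79) or X4 replicate 6 (-0.81). Dnajc3 (-0.60) lost its call without the same 3 livers (-0.47, -0.59 and -0.59).

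**Figure D3:**
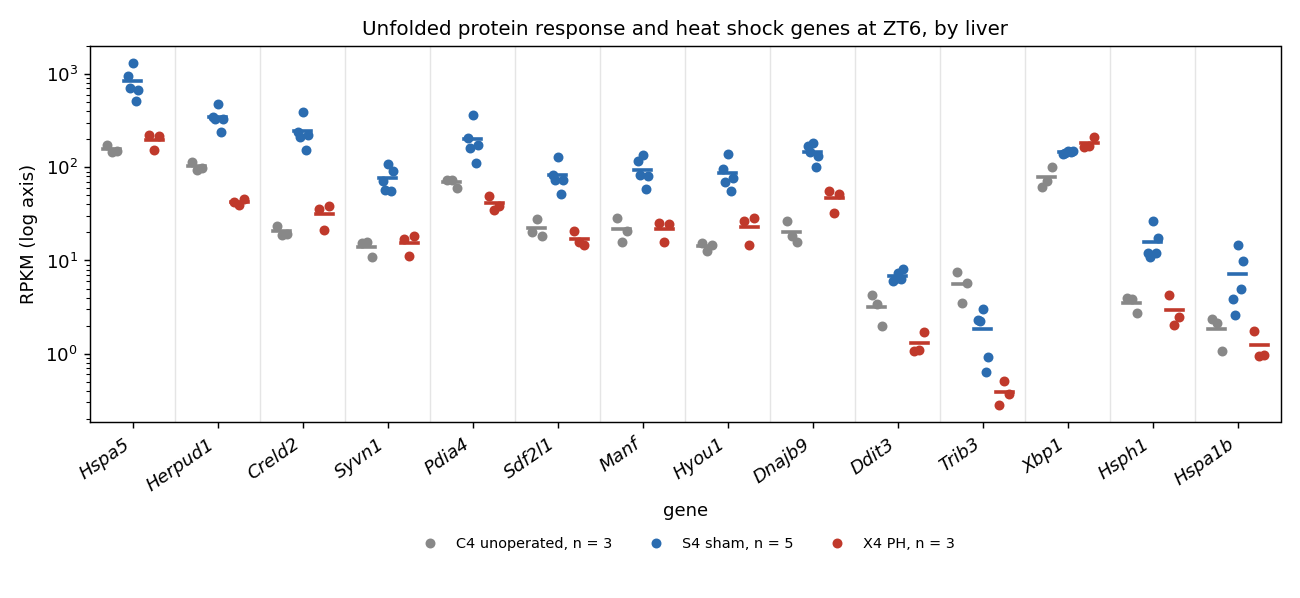
RPKM (log axis) of 14 ER stress and heat shock genes in the unoperated (C4, grey, n = 3), sham (S4, blue, n = 5) and PH (X4, red, n = 3) livers of ZT6, 1 point a liver and a bar at the group mean. For Hspa5, Creld2 and Hyou1 the PH livers sit near the unoperated ones and all 5 sham livers above both, and Xbp1 has its PH livers above the sham livers.

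Set against the unoperated livers, 22 of the 30 ER stress genes were higher and 1 lower in S4 (median 1.22), and 6 were higher and 6 lower in X4 (median 0.02). Over all genes, 12.2% were higher and 31.0% lower in S4 than in C4, and 11.7% higher and 33.9% lower in X4 than in C4, with the median gene at -0.22 and -0.26. Both comparisons use the same C4 livers, which come from another experimental period, and are given side by side only. Hyou1 stood 2.54 above C4 in S4 and 0.64, not called, in X4; Dnajb9 stood 2.83 above in S4 and 1.19 above in X4, and both differences of Dnajb9 were called.

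Cytosolic chaperones moved the same way. Of 26 heat shock list members, 14 were lower in X4 and none higher (median -0.68); the count was 13 without S4 replicate 3 and 9 against S4 replicates 4 and 5 only. Hsph1 (Hsp110), a nucleotide exchange factor for Hsp70, was at 4.26, 2.02 and 2.46 RPKM in X4 and at 11.9, 10.9, 26.7, 12.1 and 17.4 RPKM in S4 (-2.32 ± 0.44, adjusted p = 0.000112), without overlap. The inducible Hsp70 gene Hspa1b was at 1.77, 0.947 and 0.974 RPKM in X4 and at 3.87, 2.61, 14.5, 4.89 and 9.87 RPKM in S4 (-2.11 ± 0.53, adjusted p = 0.0032). Its near-identical neighbour Hspa1a was lower by 1.80, but reads that fit both genes were split between them, so the pair counts as 1 measurement. In S4 replicate 3 both genes were at their highest, and without that liver Hspa1b differed by -1.79. Dnajb1, the Hsp40 partner of Hsp70, was at 2.74 to 3.19 RPKM in X4 and 6.16 to 12.5 in S4 (-1.58 ± 0.24, adjusted p = 1.11e-06).

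Constitutive and helper chaperones fell less. Hspa8 (Hsc70) was at 238, 174 and 214 RPKM in X4 and 365 to 605 RPKM in S4 (-1.11 ± 0.29, adjusted p = 0.00494), Stip1, which links Hsp70 and Hsp90, fell by 1.00, and the Hsp90 co-chaperones Chordc1 and Ahsa1 by 1.15 and 0.71. Bag3, a co-chaperone for selective autophagy, was at 19.5 to 23.7 RPKM in X4, 33.9 to 43.5 in S4 and 6.39 to 9.00 in C4, so it was above the unoperated level in both operated groups and higher in S4. Its fall against S4 (-0.81) was not called without X4 replicate 5 (-0.72). Hsp90ab1 (-0.67) was not called without S4 replicate 3 (-0.52), X4 replicate 5 (-0.65) or X4 replicate 6 (-0.58), and Hsp90aa1 did not pass (-0.31, adjusted p = 0.631). Among the heat shock factors, Hsf2 fell (-0.69) and Hsf1 differed by -0.24 without passing. Against the unoperated livers, 13 of the 26 genes were higher and 3 lower in S4, and 4 were higher and 6 lower in X4.

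The heat shock element, searched as GAANNTTC, stood in 12 of 26 promoter windows of this list (46.2%) and in 7.86% of all windows. The stretch of Hspa1b, the inducible Hsp70 gene, is shown for the 160 bases before the RefSeq start with the element in capitals; it begins 104 bases before the start.
Hspa1b (mm9 chr17:35096184-35096343, minus strand): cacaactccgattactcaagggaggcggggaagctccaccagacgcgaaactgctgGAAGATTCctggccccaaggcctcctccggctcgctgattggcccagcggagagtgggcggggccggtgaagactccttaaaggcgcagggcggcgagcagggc
The element stood in a window of 11 of the 20 list genes that have one.

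The cholesterol list holds synthesis genes, which SREBP2 switches on when ER sterol is low, and also sterol exporters such as Abca1. Of its 27 members 6 were lower in X4 and 2 higher (median -0.20). Mvd, which makes isopentenyl pyrophosphate in the mevalonate pathway, had the largest fall of all called genes: it was at 1.12, 0.540 and 0.658 RPKM in X4 and at 16.7, 8.07, 13.5, 3.81 and 7.62 RPKM in S4 (-3.19 ± 0.52, adjusted p = 8.55e-06, 9.12-fold). Unoperated livers had 7.49 to 13.1 RPKM, within the range of the sham livers, and every PH liver was below both groups. Insig1, the ER protein that retains SREBP and is itself an SREBP target, was at 13.1, 7.45 and 6.52 RPKM in X4 and at 62.4, 23.6, 49.8, 17.5 and 35.1 RPKM in S4 (-1.95 ± 0.42, adjusted p = 0.000551), and at 96.1 to 125 RPKM in C4. Stard4, a cholesterol carrier, was at 2.76 to 3.81 RPKM in X4 and 5.53 to 11.5 in S4 (-1.21 ± 0.26). Against the unoperated livers, 16 of the 27 genes were lower in X4 and 11 in S4.

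Not all calls of this list were stable. Sqle, the squalene epoxidase, differed by -1.23, a call lost without S4 replicate 1 (-1.02), S4 replicate 3 (-1.10), X4 replicate 5 (-1.11) or X4 replicate 6 (-1.13). The list kept 3 lower genes without S4 replicate 3. Against S4 replicates 4 and 5 only it kept 2, Mvd and Stard4, so that Insig1 was not called there. Insig2, the second Insig gene, moved the other way: it was at 140, 228 and 130 RPKM in X4 and at 38.9, 57.4, 56.5, 72.3 and 88.2 RPKM in S4 (1.41 ± 0.28, adjusted p = 0.000207). Its groups did not overlap, but the rise against S4 replicates 4 and 5 only was 1.01 and not called. Abca1, the cholesterol exporter, was higher by 0.69, a call lost without X4 replicate 6 (0.61).

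Pdk4, the kinase that shuts pyruvate out of the citric acid cycle when fat is burnt, had the largest rise of the protein-coding genes. It was at 24.0, 12.1 and 15.4 RPKM in X4, at 1.38, 0.822, 1.92, 0.825 and 1.16 RPKM in S4 and at 0.989 to 3.00 RPKM in C4, so that the 3 PH livers stood above all others of that hour. The difference was 11.8-fold (3.56 ± 0.63, adjusted p = 3.29e-05). Of 29 genes of fatty acid oxidation, PPAR-alpha and ketogenesis, 8 were higher in X4 and none lower (median 0.45), where 3.16% of all genes were higher. Ehhadh, an enzyme of peroxisomal beta-oxidation, was at 105, 88.2 and 130 RPKM in X4 and 30.9 to 74.5 RPKM in S4 (1.28 ± 0.34, adjusted p = 0.00638). The mitochondrial acyl transferase Cpt2 was at 73.0 to 76.6 RPKM in X4 and 36.9 to 58.7 RPKM in S4 (0.60 ± 0.14). Vnn1, a pantetheinase and PPAR-alpha target, was 2.81-fold higher without overlap.

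The count of this list depended on the libraries: it was 6 without S4 replicate 3, between 4 and 12 over all fits that left out 1 liver, and 3 against S4 replicates 4 and 5 only. The thioesterase Acot2 was at 7.25 to 11.2 RPKM in X4 and 1.24 to 6.30 RPKM in S4, Ehhadh and Acot2 were not called without X4 replicate 6 (1.13 and 1.5), and Cpt2 not without S4 replicate 1 (0.49). Cyp4a14 and Cyp4a31, omega-hydroxylases induced by PPAR-alpha, were higher by 2.38 and 1.33 with overlapping groups, S4 replicate 5 alone reaching 279 RPKM of Cyp4a14 where the other sham livers had 20.0 to 61.3. Both calls were lost in most fits that left out 1 liver (2.00 to 2.40 and 1.05 to 1.35). Ppara itself was at 6.09 to 8.36 RPKM in X4 and 3.83 to 9.27 RPKM in S4 (0.19, adjusted p = 0.796). Angptl4 (0.63), Cpt1a (0.53) and Fgf21 (-1.03), which serve fat mobilisation, mitochondrial entry and the fasting response, did not pass.

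Of 15 lipid droplet proteins and lipases, 5 were higher in X4 and none lower (median 0.46). Cidec, which fuses droplets into larger ones, was at 9.82, 17.6 and 24.0 RPKM in X4, at 1.77, 2.18, 1.52, 1.40 and 3.59 RPKM in S4 and at 0.604 to 0.695 RPKM in C4 (2.87 ± 0.57, adjusted p = 0.000191). Plin2, the coat protein of hepatocyte droplets, was at 492, 531 and 612 RPKM in X4 and at 156, 272, 271, 173 and 226 RPKM in S4 (1.34 ± 0.29, adjusted p = 0.000535). In both genes the groups were apart, and both kept their calls whichever liver was left out and against S4 replicates 4 and 5 only. Hilpda, an inhibitor of droplet lipolysis, was at 4.94 to 10.8 RPKM in X4 and 2.07 to 3.46 in S4 (1.36), a call lost without X4 replicate 6 (1.09). Plin5, which ties droplets to mitochondria, rose by 1.22 but not against S4 replicates 4 and 5 only (0.44), whose levels of 40.7 and 39.4 RPKM were near the X4 livers at 43.2 to 76.6, and it lost its call without S4 replicate 1 (0.94), S4 replicate 3 (1.11) or X4 replicate 5 (0.97). Fitm1 (0.90), an ER protein of droplet budding, was called with all livers and lost its call when any liver other than S4 replicate 4 and X4 replicate 6 was left out (0.62 to 0.90). Pctp, a phosphatidylcholine carrier outside the list, was at 36.8, 56.3 and 45.1 RPKM in X4 and 8.73 to 21.9 RPKM in S4 (1.84 ± 0.25, adjusted p = 1.51e-07).

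**Figure D4:**
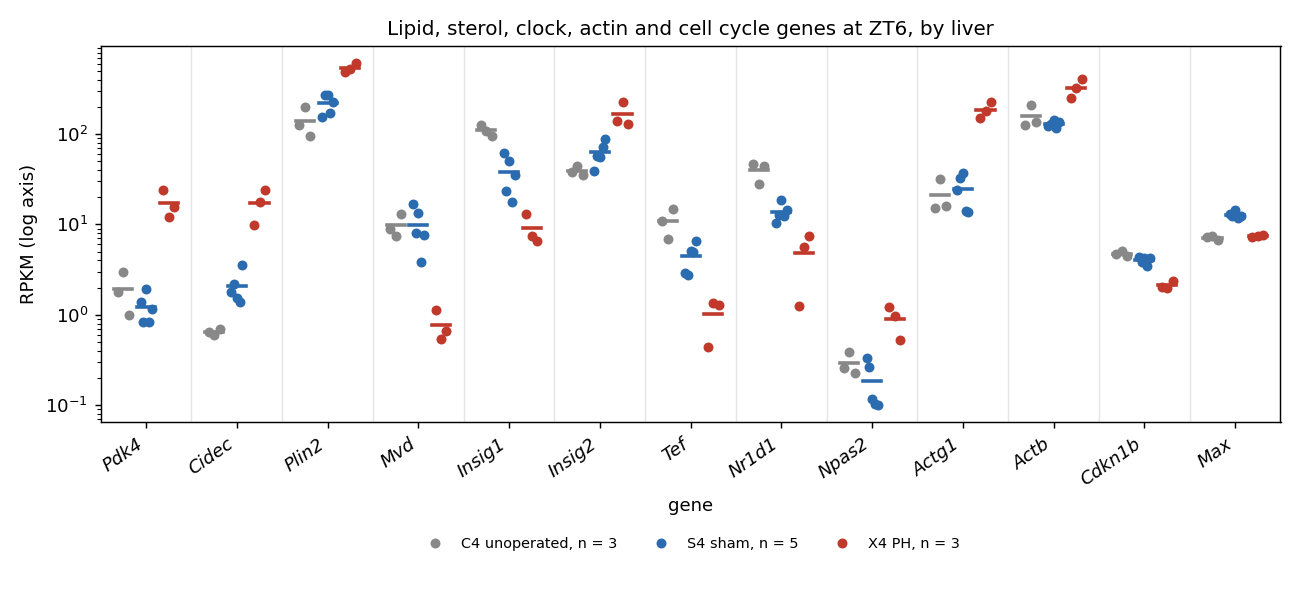
RPKM (log axis) of 13 genes of fat and sterol metabolism, the clock, the cytoskeleton and the cell cycle in unoperated (C4, grey, n = 3), sham (S4, blue, n = 5) and PH (X4, red, n = 3) livers of ZT6, 1 point a liver and a bar at the group mean. PH livers lie above all others for Pdk4, Cidec, Plin2, Npas2 and Actg1 and below all others for Mvd, Insig1, Tef, Nr1d1 and Cdkn1b.

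Among 31 genes of gluconeogenesis and glycolysis, 5 were higher and none lower (median 0.19). Besides Pdk4, Sik1, a kinase that restrains glucagon signalling, was at 8.94, 6.48 and 8.29 RPKM in X4 and 2.39 to 3.80 RPKM in S4 (1.38 ± 0.31, adjusted p = 0.000966). The coactivator Ppargc1a was at 0.723 to 1.46 RPKM in X4, 0.348 to 0.509 RPKM in S4 and 0.811 to 0.918 RPKM in C4 (0.97), a call lost without X4 replicate 5 (0.76). Creb3l3, an ER-bound transcription factor of fasting, was called (0.55) and not called without S4 replicate 1 (0.34), X4 replicate 5 (0.52) or X4 replicate 6 (0.48). The glucose transporter Slc2a2 was higher by 0.75 against all S4 livers and differed by -0.06 against replicates 4 and 5 only, so its direction depended on the sham livers; leaving out any of S4 replicates 1 to 3 or any X4 liver also ended the call (0.57 to 0.86). Pck1 and G6pc, the committed steps of glucose output, overlapped between the groups and did not pass (0.30 and 0.98, adjusted p 0.694 and 0.164). Fasn, the fatty acid synthase, did not pass either (0.54, adjusted p = 0.416). In the growth hormone and IGF axis, 2 of 18 genes were higher: the insulin receptor substrate Irs2, at 7.48 to 11.1 RPKM in X4 and 2.16 to 4.42 in S4 (1.45), and Stat5a (0.64); neither was called without X4 replicate 4 (1.36 and 0.55) or X4 replicate 6 (1.35 and 0.57), nor Stat5a without S4 replicate 2 (0.57) or S4 replicate 3 (0.60). Igfbp1, a secreted IGF carrier, was at 701 to 931 RPKM in X4, 220 to 683 in S4 and 28.2 to 72.3 in C4, without overlap, but did not pass (1.40, adjusted p = 0.134).

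Some clock genes of the PAR-bZIP and repressor arms were lower in X4 at the same hour of the day. Of 19 core clock and output genes, 7 were lower and 2 higher (median -0.40). Tef, a PAR-bZIP output factor, was at 0.445, 1.36 and 1.28 RPKM in X4, at 2.91, 2.74, 5.08, 4.95 and 6.48 RPKM in S4 and at 6.98 to 14.9 RPKM in C4 (-1.90 ± 0.25, adjusted p = 8.83e-08). Nr1d2, a REV-ERB repressor of Arntl, was at 1.27 to 3.06 RPKM in X4 and 6.08 to 8.89 RPKM in S4 (-1.65 ± 0.27, adjusted p = 9.08e-06), and Nr1d1, the other one, at 1.25, 5.61 and 7.51 RPKM in X4 and 10.5 to 18.6 RPKM in S4 (-1.75). Gm129 (Ciart), a repressor of the Clock complex, was at 0.0877 to 0.390 RPKM in X4 and 0.633 to 1.90 in S4 (-1.75), and Cry2, a core repressor, at 0.723 to 0.948 RPKM in X4 and 1.26 to 2.05 in S4 (-0.75). Dbp, a PAR-bZIP factor, was at 0.157 to 0.326 RPKM in X4, 0.415 to 1.36 in S4 and 8.36 to 45.8 in C4, so both operated groups were far below the unoperated livers. Per2 fell by 1.02. The PAR-bZIP gene Hlf and the repressors Per3, Cry1, Nfil3, Bhlhe40 and Bhlhe41 were not called.

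X4 replicate 4 was the lowest PH liver for Tef, Nr1d1, Gm129, Dbp and Per2 and weighed on the counts. Without it, Nr1d1 (-1.02), Dbp (-1.02) and Per2 (-0.86) were not called and the list held 4 lower genes; Nr1d1 was also not called without S4 replicate 3 (-1.63), Dbp not without X4 replicate 5 (-1.12) and Per2 not without S4 replicate 5 (-0.81). Npas2, a partner of Arntl in the positive arm, was at 1.23, 0.964 and 0.519 RPKM in X4, at 0.0995 to 0.332 RPKM in S4 and at 0.228 to 0.384 RPKM in C4 (1.40 ± 0.24, adjusted p = 1.57e-05). Arntl (Bmal1) was higher by 0.58 with overlap, a call lost when any liver other than S4 replicates 2 and 3 and X4 replicate 6 was left out (0.44 to 0.60). Per1 (-0.89, adjusted p = 0.281) and Clock (0.18) did not pass. An E-box, CACGTG, stood in 28.6% of the list's promoter windows (those of Bhlhe41, Ciart, Cry1, Per1 and Tef) and in 7.15% of all. It also stood in 19.2% of the heat shock and 19.2% of the cholesterol windows. The shares were 7.41% in the ER stress list and 7.69% in the fatty acid oxidation list. Of the genes named, Gm129 (Ciart) and Tef were lower, and Bhlhe41, Cry1 and Per1 were not called. More motifs were searched than are shown, and the counts carry no test.

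Actg1 (chr11:120207004-120209856, minus strand of mm9), cytoplasmic gamma-actin, was at 149, 182 and 228 RPKM in X4, at 23.8, 32.9, 37.5, 14.0 and 13.8 RPKM in S4 and at 15.1 to 31.8 RPKM in C4. It was 8.09-fold higher after PH (3.02 ± 0.36, adjusted p = 7.19e-09), and the lowest PH liver was well above the highest other liver. Its pseudogene Actg-ps1 rose by 3.00, but reads that fit several places were split between them, so this is not a separate measurement. Actb, beta-actin, was at 252, 322 and 408 RPKM in X4 and 118 to 145 RPKM in S4 (1.30 ± 0.19, adjusted p = 1.17e-06), and the actin cross-linker Flna was at 2.21 to 2.87 RPKM in X4 and 0.713 to 1.32 in S4 (1.07). Of the 25 cytoskeleton genes these were the 3 that rose. The 3 that fell were the tubulins Tubb5 (-1.0) and Tubb4b (-0.68) and the nuclear lamin Lmna (-0.76), the latter at 3.66 to 4.59 RPKM in X4 and 5.99 to 9.14 in S4. Tubb5 was not called without X4 replicate 5 (-0.85) and Tubb4b not without X4 replicate 6 (-0.60). Outside the list, the focal adhesion protein Vcl was at 9.36 to 10.9 RPKM in X4 and 3.68 to 5.12 RPKM in S4 (1.24 ± 0.16, adjusted p = 2.28e-08).

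Of 24 genes of the G1 list, 4 were lower and none higher, where 5.48% of all genes were lower. Cdkn1b (p27), the kinase inhibitor that holds quiescent cells in G0, was at 2.01, 1.97 and 2.39 RPKM in X4, at 4.39, 3.86, 4.27, 3.51 and 4.20 RPKM in S4 and at 4.49 to 5.11 RPKM in C4 (-0.86 ± 0.13, adjusted p = 9.01e-07). Of the other lower genes, Ccne1, cyclin E1, was at 0.498 to 0.769 RPKM in X4 and 0.936 to 1.67 in S4 (-0.89), a call lost without X4 replicate 5 (-0.82) or X4 replicate 6 (-0.81). Cdk2 (-0.51) and E2f6 (-0.53) passed narrowly. Cdk2 lost its call when any liver other than S4 replicate 2 was left out (-0.44 to -0.53), and E2f6 without S4 replicate 3, S4 replicate 5 or any X4 liver (-0.41 to -0.56). Cdkn1a (p21) was at 78.3 to 92.8 RPKM in X4, 19.2 to 45.9 in S4 and 0.335 to 1.78 in C4; the X4 livers were above all S4 livers, yet the difference did not pass (1.33, adjusted p = 0.202). Ccnd1, cyclin D1, was at 11.9, 6.45 and 8.48 RPKM in X4 and 5.51 to 9.88 RPKM in S4 (0.09 ± 0.38), and its sign changed without S4 replicate 4 (-0.04) or X4 replicate 4 (-0.13). None of 25 replication and mitosis genes passed.

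Max, the obligate partner of Myc, and the Myc antagonists Mxd1 and Mxd4 were lower. Max was at 7.33, 7.43 and 7.69 RPKM in X4, at 13.2, 12.4, 14.4, 11.9 and 12.4 RPKM in S4 and at 6.70 to 7.43 RPKM in C4 (-0.76 ± 0.11, adjusted p = 8.85e-07). Mxd4 was at 4.43 to 5.45 RPKM in X4 and 9.29 to 15.7 in S4 (-1.21 ± 0.18), and Mxd1 at 0.348 to 0.547 RPKM in X4 and 0.862 to 1.52 in S4 (-1.01 ± 0.15). These were 3 of the 13 genes of the network, and the count was 3 in each of the fits that left out 1 liver. Myc was at 2.32 to 2.55 RPKM in X4 and 0.776 to 2.04 in S4, without overlap, and did not pass (0.89, adjusted p = 0.155). In ribosome biogenesis, 3 of 39 genes were lower, Polr1c (-0.66), Nop16 (-0.55) and Wdr74 (-0.50), near the 5.48% of all genes that were lower. Nop16 and Wdr74 were not called without S4 replicate 3 (-0.47 and -0.45) or X4 replicate 5 (-0.49 and -0.46). Wdr74 was also not called without S4 replicate 1 (-0.48), S4 replicate 2 (-0.50) or X4 replicate 4 (-0.49). Srm, spermidine synthase, was at 7.36 to 9.72 RPKM in X4, 17.6 to 27.3 in S4 and 6.68 to 8.13 in C4 (-1.26), while Odc1, the first enzyme of polyamine synthesis, did not pass (0.38).

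Acute-phase and IL-6 genes were compared next, with all 3 groups of ZT6. Of 31 acute-phase plasma protein genes, 29 were higher in X4 than in C4 and 28 higher in S4 than in C4, and 1 was higher and 1 lower in X4 than in S4, near the share of all genes tested (3.16% higher and 5.48% lower). Saa1, serum amyloid A, was at 6070 to 7228 RPKM in X4, 6637 to 12903 RPKM in S4 and 24.4 to 91.6 RPKM in C4 (X4 against S4 -0.51, adjusted p = 0.714). Mt2, a metallothionein, was at 3237 to 3433 RPKM in X4, 3458 to 4974 in S4 and 3.21 to 19.9 in C4 (-0.19, adjusted p = 0.95). The called members were Crp, C-reactive protein, at 187 to 349 RPKM in X4 and 386 to 619 in S4 (-0.92 ± 0.16), and Itih3, a hyaluronan-binding plasma protein, at 592 to 716 RPKM in X4 and 365 to 459 in S4 (0.67 ± 0.17). Among 22 IL-6 and STAT3 pathway genes, 16 were higher in X4 and 17 in S4 than in C4, and between X4 and S4 the phosphatase Ptp4a1 alone passed (0.56), a call lost when S4 replicate 2, S4 replicate 3 or any X4 liver was left out (0.47 to 0.58).

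Of 25 immediate-early genes 4 were higher and none lower (median 0.48). Csrnp1 was at 8.56 to 13.2 RPKM in X4 and 3.68 to 5.70 in S4 (1.16), Klf4 at 0.392 to 0.518 and 0.106 to 0.237 RPKM (0.74), Klf6 at 4.83 to 6.34 and 2.42 to 4.38 RPKM (0.78) and Zfp36, a destabiliser of cytokine mRNA, at 72.0 to 88.3 and 30.5 to 69.4 RPKM (0.74). All 4 were apart between groups, but the count was 2 without S4 replicate 3, 2 without X4 replicate 4, 1 without X4 replicate 6 and 1 against S4 replicates 4 and 5 only. Fos (1.04) and Egr1 (0.85) had every X4 liver above every S4 liver and did not pass (adjusted p 0.21 and 0.499). Gadd45b, a stress-induced growth arrest gene, was at 6.75, 6.87 and 10.3 RPKM in X4 and 1.43 to 3.85 RPKM in S4 (1.82 ± 0.38, adjusted p = 0.00032), and Sgk1, a glucocorticoid-induced kinase, rose by 1.11, not called without X4 replicate 4 (0.95).

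Among 21 hepatocyte transcription factors, Cebpa, C/EBP-alpha, was at 29.5, 29.5 and 38.6 RPKM in X4, at 51.2, 83.5, 83.1, 72.1 and 83.2 RPKM in S4 and at 74.6 to 115 RPKM in C4 (-1.18 ± 0.19, adjusted p = 3.76e-06). Atf5, a bZIP factor, fell by 1.07 and Tbx3, a T-box factor, by 1.14, the latter not called without S4 replicate 3 (-0.88), X4 replicate 4 (-1.0) or X4 replicate 6 (-1.01). Nr1i2, the pregnane X receptor, was higher by 0.77, lost without X4 replicate 5 (0.59) and against S4 replicates 4 and 5 only (0.27). Hnf4a was at 116 to 129 RPKM in X4 and 139 to 182 in S4, without overlap, and did not pass (-0.33, adjusted p = 0.242).

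In TGF-beta, activin and BMP signalling 4 of 23 genes were higher and 2 lower, where 3.16% of all genes were higher and 5.48% lower. Id1, an inhibitor of bHLH factors induced by BMP, was at 15.8, 20.1 and 20.6 RPKM in X4, 1.93 to 7.71 RPKM in S4 and 7.22 to 20.2 RPKM in C4 (1.94 ± 0.43, adjusted p = 0.000871). The receptor Tgfbr2 (0.70), the inhibitory Smad7 (0.71) and the activin antagonist Fst (1.93) were higher, Bmp2 (-0.80) and Smad2 (-0.69) lower. X4 replicate 5 had 0.669 RPKM of Fst and the other PH livers 4.25 and 4.31 RPKM, so that Fst lost its call without X4 replicate 4 (1.55) or X4 replicate 6 (1.54). Tgfbr2 lost its call without X4 replicate 5 (0.57), and Smad7 without S4 replicate 1 (0.65), S4 replicate 2 (0.55) or any X4 liver (0.67 to 0.74). Without each X4 liver in turn 2 genes were higher, and against S4 replicates 4 and 5 only none of the 6 was called. Tead1, the DNA-binding partner of Yap, was at 5.48, 4.51 and 4.85 RPKM in X4, 0.799 to 2.97 RPKM in S4 and 0.0799 to 0.144 RPKM in C4 (1.53 ± 0.20, adjusted p = 1.21e-07).

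The lists not yet described gave at most 3 calls each. Slc40a1, the iron exporter ferroportin, was at 2.32 to 3.59 RPKM in X4, 4.44 to 7.50 in S4 and 14.9 to 28.9 in C4 (-1.04), not called without X4 replicate 6 (-0.89). The autophagy adaptor Sqstm1 was at 66.6 to 69.6 RPKM in X4 and 94.2 to 124 in S4 (-0.61 ± 0.12). Aass, which begins lysine breakdown, was at 254 to 335 RPKM in X4 and 137 to 162 in S4 (0.97 ± 0.19), and Nags, which makes the activator of the urea cycle, at 8.39 to 11.1 and 13.5 to 22.1 RPKM (-0.71 ± 0.16). The chemokine Cxcl12 was at 5.15 to 7.78 RPKM in X4, 8.09 to 15.6 in S4 and 25.5 to 30.3 in C4 (-0.82 ± 0.19). Cyp7a1, the rate-limiting enzyme of bile acid synthesis, was at 0.182 to 0.523 RPKM in X4, 0.156 to 2.42 in S4 and 3.97 to 9.39 in C4 and did not pass (-0.62, adjusted p = 0.598). Of 40 genes followed whether called or not, 7 passed, among them Pdk4, Plin2, Ppargc1a, Arntl, Dbp and Nr1d1, and 33 did not, with differences of -1.03 to 1.40.

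Of the leading genes outside the lists, Fbf1, a ciliary transition fibre protein, was at 9.81, 8.95 and 8.30 RPKM in X4 and at 0.445, 0.528, 0.371, 1.64 and 1.06 RPKM in S4 (3.26 ± 0.35, adjusted p = 3.12e-10). It lies at chr11:116003599-116029480 of mm9 on the minus strand. The small RNA gene SCARNA4, inside Fbf1, was at 1.66 to 2.09 RPKM in X4 and listed at 0 in all S4 livers. Whether its reads come from the Fbf1 transcript was not tested, so it is not taken as a separate measurement. Tmprss7, a serine protease, was at 0.886 to 1.5 RPKM in X4 and 0.0358 to 0.404 in S4 (1.79 ± 0.16, adjusted p = 5.94e-13), Enc1, an actin-associated protein, at 3.83 to 5.42 and 0.727 to 1.35 RPKM (1.88), and Rnf144a, a ubiquitin ligase, at 4.19 to 5.33 and 0.920 to 1.61 RPKM (1.83). Vasn, a cell-surface glycoprotein that binds TGF-beta, was at 0.516 to 0.626 RPKM in X4 and 2.57 to 4.13 in S4 (-2.08 ± 0.22, adjusted p = 2.18e-10). Fam107b rose by 2.56, 3930402G23Rik by 2.10, and Gm6484 fell by 2.11, the last not called without S4 replicate 3 (-1.84) or X4 replicate 6 (-1.86).

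Few of these differences were seen at 1 h and some had changed by 10 h. PH and sham livers differed in 100 genes at 1 h (0.65%) and 1081 at 10 h (7.02%). Of the 1330 genes of 4 h, 36 were also called at 1 h (2.71% of the 4 h genes and 36.0% of the 1 h genes), 32 in the same direction, and 257 at 10 h (19.3% and 23.8%), 251 in the same direction. The difference between PH and sham itself was more positive at 4 h than at 1 h by the test of the interaction in 163 genes (1.06%) and more negative in 557 (3.62%), and against 10 h more positive in 181 (1.18%) and more negative in 394 (2.56%). These counts rested in part on single livers: the 720 genes that differed from 1 h became 429 without S4 replicate 3, 473 without X4 replicate 5 and 403 against S4 replicates 4 and 5 only, and the 575 that differed from 10 h became 339, 343 and 86. Livers of 1, 4 and 10 h were taken at different times of the day, so hours after surgery and the time of day cannot be told apart, and no liver is shared between these comparisons.

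None of the 30 ER stress genes was called at 1 h in either direction, 24 were lower at 4 h and 3 at 10 h. The interaction passed for 23 of the 30 against 1 h and for 11 against 10 h. Hspa5 was at 169 to 333 RPKM in X1, 140 to 432 in S1, 335 to 687 in X10 and 399 to 492 in S10, so PH and sham overlapped at 1 and 10 h, and the 4 h difference was more negative by 2.04 ± 0.44 than at 1 h (adjusted p = 0.0018) and by 2.04 ± 0.48 than at 10 h (adjusted p = 0.00721). Herpud1 was at 169 to 261 RPKM in X1 and 178 to 335 in S1 (interaction -2.89 ± 0.50, adjusted p = 0.0001). Heat shock genes passed the interaction in 9 members against 1 h and 3 against 10 h.

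The course to 10 h differed among fat genes. Cidec was at 0.956 to 2.82 RPKM in X1, 0.326 to 1.76 in S1, 27.2 to 133 in X10 and 1.26 to 3.54 in S10, and its PH minus sham difference was 0.53 at 1 h, 2.87 at 4 h and 4.56 at 10 h. Plin2 was at 509 to 1037 RPKM in X10 and 166 to 225 in S10, and its difference was -0.33, 1.34 and 1.80; the step from 1 to 4 h passed (1.68 ± 0.37, adjusted p = 0.00225) and that from 4 to 10 h did not (adjusted p = 0.612). At 10 h, 7 of the 15 lipid droplet genes and 5 of the 29 fatty acid oxidation genes were higher, where 7.02% of all genes differed in either direction. Pdk4 was at 3.24 to 17.5 RPKM in X1 and 1.83 to 15.6 in S1, and its 4 h difference exceeded that of 1 h by 3.88 ± 0.80 (adjusted p = 0.00127). At 10 h its difference was 1.56 and not called (adjusted p = 0.0845), and that of Cyp4a14 was 0.87 and not called. Cyp7a1 was lower in X10, at 0.294 to 5.91 RPKM against 14.4 to 24.4 in S10, a difference of -3.62 that passed at 10 h, and the interaction with 4 h passed (3.00 ± 0.86, adjusted p = 0.0298). Actg1 differed by 0.21, 3.02 and 1.71 at the 3 times.

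Some genes changed direction, with both differences and the interaction passing. Gm129 was higher in X1, at 2.67 to 4.56 RPKM against 0.472 to 0.938 in S1 (1.90), and lower in X4 (-1.75), a change of -3.65 ± 0.51 (adjusted p = 1.6e-06). Cry2 was at 3.39 to 6.08 RPKM in X1 and 2.07 to 3.27 in S1 (0.66) and lower in X4 (-0.75). Iffo2 (0.77 at 1 h and -0.70 at 4 h) and Sec22c, a vesicle trafficking protein of the ER (0.53 and -0.66), did the same. Against 10 h, the carboxylesterase Ces1d was higher in X4 (1.10), at 130 to 201 RPKM against 61.8 to 93.4 in S4, and lower in X10 (-0.73), and the aldehyde oxidase Aox3 was higher in X4 (0.89) and lower in X10 (-1.07). Adra1b, an adrenergic receptor (0.65 and -0.87), and Obfc2a, a single-stranded DNA binding protein (-0.74 and 1.03), also changed direction. The 4 h calls of Aox3, Adra1b and Obfc2a were lost in most fits without 1 liver (0.82 to 0.92, 0.43 to 0.61 and -0.69 to -0.78), and that of Sec22c without X4 replicate 4 (-0.50). Npas2, which was called in neither comparison at 1 and 10 h, was at 1.24 to 1.88 RPKM in X1, 0.869 to 2.71 in S1 and at most 0.0525 in X10. Max passed the interaction against both times (-0.65 ± 0.14 and -0.72 ± 0.16).

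**Figure D5:**
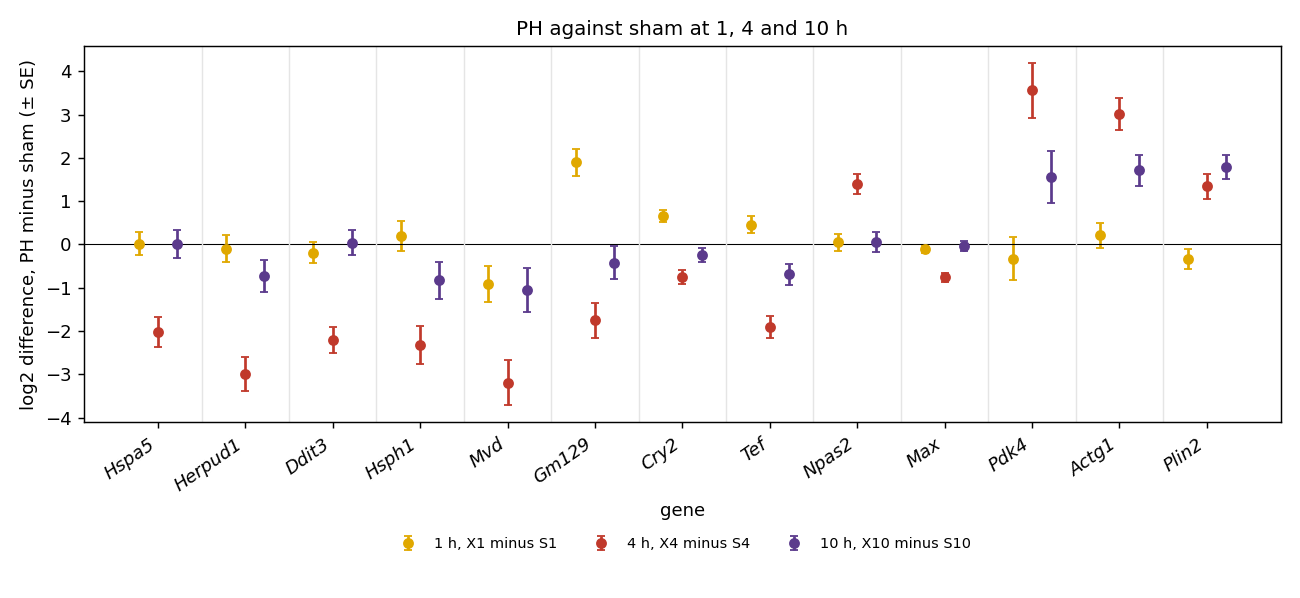
PH minus sham difference (y axis, log2, with its SE) of 13 genes (x axis) at 1 h (yellow), 4 h (red) and 10 h (purple) after surgery. Hspa5, Herpud1, Ddit3 and Max lie farthest below 0 at 4 h, Pdk4, Actg1 and Plin2 rise between 1 and 4 h, and Gm129 and Cry2 pass from above 0 at 1 h to below 0 at 4 h.

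Markers of other cell types were checked beside these results. Of 86 tested genes from 11 marker lists, 2 were called, where 8.64% of all genes tested were. They were the neutrophil receptor Cxcr2 (-0.65) and Oit3, a sinusoidal endothelial gene (-0.89). Cxcr2 was at 0.0870 to 0.218 RPKM in X4 and 0.0872 to 1.08 RPKM in S4. It was not called without S4 replicate 3 (-0.36), S4 replicate 5 (-0.51), X4 replicate 4 (-0.61) or X4 replicate 5 (-0.55). Oit3 was not called without S4 replicate 1 (-0.76), X4 replicate 4 (-0.84) or X4 replicate 6 (-0.92). The summed neutrophil and monocyte markers ranged from 5.11 to 11.5 RPKM in X4, 8.03 to 48.8 in S4 and 2.32 to 6.10 in C4, and macrophage markers from 25.4 to 32.8, 24.8 to 69.5 and 66.0 to 90.9. The median difference of X4 against S4 was -0.60 for neutrophil and monocyte, -0.40 for macrophage and -0.33 for erythroid markers. It was -0.29 for cholangiocyte, -0.26 for endothelial and -0.11 for B and T cell markers. It was 0.04 for stellate cell, 0.06 for mesothelial and -0.04 for hepatocyte markers, and -0.04 for all genes tested. The part of these cell types in the results was not tested. The 9 hepatocyte markers summed to 43820 to 45790 RPKM in X4 and 40520 to 53830 in S4, all livers being of the labelled tissue. Of the 10 pancreas markers 8 and of the 7 skeletal muscle markers 6 were below 0.05 RPKM in all 8 livers.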

How the data were processed

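Poly(A) RNA of individual livers was sequenced as stranded libraries with single-end reads and no spike-in. The deposited values are log2 RPKM per gene, which the authors made by trimming and filtering reads (Cutadapt, prinseq-lite), aligning them to mm9 with TopHat2 2.0.13 and Bowtie2, sorting with SAMtools 0.1.19 and counting on the transcribed strand over Ensembl genes with featureCounts, splitting multi-mapping reads over their positions. Tool versions are those of the submitters' processing notes. RPKM sums are set by the whole library, so a change of total RNA per cell is not seen. The table has 37991 genes and 84 columns, of which 80 matched a labelled sample; 4 columns with 4 h sham names matched none and were not used, and 3 of 6 labelled X4 samples have no column and were not analysed here. Genes above a log2 RPKM of -1.5 in at least 1 library were kept. At the median depth of 30.1 M reads this value is 21.3 reads for a gene of 2 kb.

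Values were turned back to RPKM, and log2(RPKM + 0.25) was fitted with limma 3.58.1 (R 4.3.3, empirical Bayes with trend) over all 19 groups and 80 libraries, which share the estimate of spread. Contrasts were X4 against S4, the same at 1 and 10 h, their differences, and X4 and S4 against C4; p-values were adjusted by Benjamini-Hochberg over all genes, two-sided. Tables and plots used Python 3.11.15, pandas 2.3.3, NumPy 2.4.6 and Matplotlib 3.10.9. The procedure was tested on simulated data. Named genes were 12 protein-coding genes a direction, up to 3 called members a direction of each list, and 40 genes followed whether called or not. The 12 were ranked by the size of the change among called genes without overlap between groups. Their mean log2 RPKM had to be above 0 in X4 or S4. Other genes named were chosen after their values were seen. Values of some single genes are not reported here. The groups and gene lists were chosen with earlier results of these data known. Alternatives were other pseudocounts, filters, scaling and fits, subsets of the S4 livers and leaving out each liver.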

Additional observations from a re-analysis of the deposited data

Results flagged for a closer look

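In 6 of the 205 gene and group combinations examined, 1 of the 5 sham livers lay far from the other 4; chance alone flags about 1 in 20. S4 replicate 3 was high for the oxidase Ero1lb (33.38 RPKM), Hsp90aa1 (108.2 RPKM) and its co-chaperone Ahsa1 (96.62 RPKM). S4 replicate 1 was high for the metallothionein Mt2 (4974 RPKM) and Mrap (49.68 RPKM), an accessory protein of melanocortin receptors, and S4 replicate 5 for Vcl (5.124 RPKM). Of these genes Ero1lb, Ahsa1, Mrap and Vcl are called in X4 against S4. Without the liver in question Ero1lb was not called (-0.68), and Ahsa1 (-0.58), Mrap (1.57) and Vcl (1.31) were.

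The PH minus sham difference at 4 h differed from that at 1 h in 720 genes and from that at 10 h in 575 genes, by limma's test of the interaction. Against 1 h the difference was more negative for the ER stress genes Herpud1 (-2.89), Hspa5 (-2.04), Creld2 (-3.17) and Ddit3 (-2.02), for Hsph1 (-2.51) and Mvd (-2.27), for the clock genes Tef (-2.36), Gm129 (-3.65) and Cry2 (-1.41), and for Max (-0.65), Iffo2 (-1.47) and Sec22c (-1.19). It was more positive for Pdk4 (3.88), Actg1 (2.81), Plin2 (1.68) and Npas2 (1.35). Against 10 h it was more negative for Herpud1 (-2.26), Hspa5 (-2.04), Ddit3 (-2.25), Obfc2a (-1.77) and Max (-0.72), and more positive for Fbf1 (3.18), Npas2 (1.35), Adra1b (1.53), Ces1d (1.83) and Aox3 (1.96). Hours after surgery and time of day cannot be told apart in these values.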

How the results depend on the processing

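Of 165 called genes followed one by one, 55 were called in all 18 other settings, 110 lost the call in at least 1, and 1 changed sign (Slc2a2, -0.06 against S4 replicates 4 and 5 only). Of 29 not called, 6 passed in at least 1 setting and Ccnd1 changed sign without S4 replicate 4 (-0.04) or X4 replicate 4 (-0.13), its values without 1 liver ranging from -0.13 to 0.30. A pseudocount of 1 gave 297 genes higher and 511 lower, 4 lower clock genes, and 3125 genes lower in S4 than in C4. The fit of the compared groups alone, with fewer samples, gave 560 lower genes, 352 that differed from 1 h, 3 lipid droplet genes higher and 3 cholesterol genes lower. Scaling to the same median gave 2905 genes higher in X4 and 2893 in S4 than in C4. Against S4 replicates 4 and 5 only, 272 genes were higher, 403 differed from 1 h and 86 from 10 h, with 15 ER stress, 9 heat shock and 2 cholesterol genes lower and 3 fatty acid oxidation and 2 lipid droplet genes higher. Against S4 replicates 1 to 3 only, 1138 genes differed from 10 h, 13 fatty acid oxidation genes were higher and 4 clock genes lower. The cause of these shifts was not tested.

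Without 1 liver at a time, genes higher ranged from 351 to 570 and lower from 610 to 938, those that differed from 1 h from 429 to 806 and from 10 h from 339 to 775. Fatty acid oxidation genes higher ranged from 4 to 12, lipid droplet genes from 3 to 5, cholesterol genes lower from 3 to 6 and clock genes lower from 4 to 7, ER stress genes from 20 to 25 and heat shock genes from 12 to 14. X4 and S4 share 2 replicate numbers, and deviations of same-numbered livers correlated at -0.17 and 0.12, so the numbers were not taken as pairs. With a replicate block over these, 173 genes were higher and 402 lower, with 10 ER stress, 4 heat shock and 1 cholesterol gene lower and 2 fatty acid oxidation and 1 lipid droplet gene higher.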

Other observations

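The following 10 genes outside the lists were picked because they were lower in X4 than in S4, so they say nothing of other genes of the secretory pathway. Arfgap3, which acts in traffic between Golgi and ER, was at 3.68, 1.39 and 3.11 RPKM in X4, at 6.06 to 16.1 RPKM in S4 and at 1.93 to 2.59 RPKM in C4 (-1.90). The bHLH factor Bhlha15 (Mist1), known from secretory cells, was at 0.353 to 1.39 RPKM in X4, 1.53 to 7.60 in S4 and 0.0142 to 0.205 in C4 (-2.06). The same direction was found for Ccdc134 (-1.88), the cargo protein Tmed3 (-1.58), the prolyl isomerase Fkbp11 (-1.52), the mannose-sugar enzyme Gmppb (-1.45), the signal receptor subunit Srprb (-1.08), the Golgi SNARE Stx5a (-1.03), Selk (-1.0) and the glucosidase Mogs (-0.93). Against S4 replicates 4 and 5 only, Arfgap3, Ccdc134, Stx5a, Selk and Mogs were called and Bhlha15, Tmed3, Fkbp11, Gmppb and Srprb were not.

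Of peroxisome and carnitine genes outside the lists, Pxmp4, a peroxisomal membrane protein, was at 118, 118 and 95.5 RPKM in X4 and 28.0 to 42.9 RPKM in S4 (1.71), Crot, the peroxisomal carnitine acyltransferase, at 116 to 133 and 40.7 to 66.9 RPKM (1.12) and the carnitine carrier Slc22a5 at 27.8 to 38.6 and 9.95 to 17.5 RPKM (1.22). Gpd2, the mitochondrial glycerol phosphate dehydrogenase, was 2.76-fold higher. H2afx, a histone H2A variant, was at 3.04 to 4.70 RPKM in X4 and 11 to 15.8 RPKM in S4 (-1.62), and the kinetochore protein Mis12 at 2.87 to 3.76 and 7.84 to 13.4 RPKM (-1.49). Both were near the unoperated level in X4, at 4.39 to 7.13 RPKM for H2afx and 3.86 to 4.23 RPKM for Mis12 in C4.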
